A study of Mus musculus with 2 samples.

Results

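The landmark genes of pericentral hepatocytes, the cells that surround the central vein of the liver lobule, were compared between 2 kinds of laser-captured liver area in PiZ mice. The genes were chosen by name: Glul, Oat, Rhbg, Slc1a2, Rgn, Gulo, Lect2, Slc13a3 and Ahr. A gene was measured where a probe set of the array named it and no other gene. Probe sets that name several genes were kept only where 1 of them is Glul. This gave values for 8 of the 9 genes, out of 30143 genes with a value by the same rule. Rhbg was the gene without a value, because its probe set also names Tsacc.

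The mice were C57BL/6 animals that carry the human gene and promoter of mutant alpha-1-antitrypsin (ATZ), a secreted protease inhibitor whose mutant form polymerises and is retained in hepatocytes as globules. Both groups share this transgene, were untreated on standard chow and were 3 months old. Areas with globules and areas without them were chosen by their appearance in Cresyl Violet-stained frozen sections and cut out by laser. Each group is 1 array of RNA pooled from 2 mice, and the labels do not say whether the same mice gave both pools. A liver without the transgene was not analysed here. The labels of both arrays name hepatocyte areas, either globule-containing or globule-free. Of 10 measured hepatocyte marker genes, 4 (Alb, Apoa2, Trf and Ahsg) were saturated on both arrays. The other 6 all had a negative difference as deposited, which for Apob was only -0.15. Ttr, saturated on the globule-free array, had -0.03, which turned to 0.06 when each array was centred on its median. Of the 6, Hpd, an enzyme of tyrosine breakdown, had a log2 signal of 14.52 with globules and 16.37 without, 3.62-fold lower. Fgb, a fibrinogen chain, had 18.39 against 19.27, 1.83-fold lower. Hpd was the 1 measured hepatocyte marker past a 2-fold difference, and 2 passed it downwards after quantile normalization and 3 after loess correction of the arrays. The probe set of the hepatocyte marker Serpina1a also names Serpina1d and was not counted. It had 17.67 against 19.01, 2.54-fold lower (named once its value was known).

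In the lobule, blood enters at the portal vein and leaves at the central vein, and hepatocytes along this path divide the work. Endothelial cells of the central vein release Wnt ligands and the Wnt enhancer R-spondin 3, and beta-catenin signalling in the nearest hepatocytes maintains the pericentral programme. Glutamine synthetase, encoded by Glul, is its best known product: it captures the ammonia that the periportal urea cycle has left over. Several of the other genes serve the same task or respond to beta-catenin, and liver staining for glutamine synthetase is a standard way to find the central vein.

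No common shift was seen. Gulo and Slc13a3 had higher signals in globule-containing areas, Glul and Ahr were higher by less than 2-fold, Lect2 and Slc1a2 lay close to equality, and Oat and Rgn were lower by less than 2-fold. With 1 array per group no test, SD or standard error can be had, and each difference is between these 2 arrays, with no replicate check. A gene's difference is its log2 signal on the globule-containing array minus that on the globule-free array. All 8 measured landmark genes lay above the floor of 4.76, the median log2 signal of probe sets naming 1 gene. Of them, 2 passed a 2-fold difference upwards (Gulo and Slc13a3) and 0 downwards. Over all 15024 genes above the floor, 6.47% passed it upwards and 5.26% downwards. The median difference of the landmark genes was 0.39 against 0.05 over all genes, and 5 of 8 had a positive difference (62.5%) against 54.5% of all genes. For scale, 177 genes have 2 probe sets above the floor, and the differences read from each lay a median of 0.17 apart, with a 90th percentile of 1.01. Background, set from the signals of 1530 probe sets for odorant and pheromone receptors at their 95th percentile, was 4.85 (globule-containing) and 5.02 (globule-free). In captured areas, fewer cells of a type and less RNA per cell cannot be told apart, and markers of stellate cells, macrophages and neutrophils, given further on, differed between the same arrays.

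**Figure D1:**
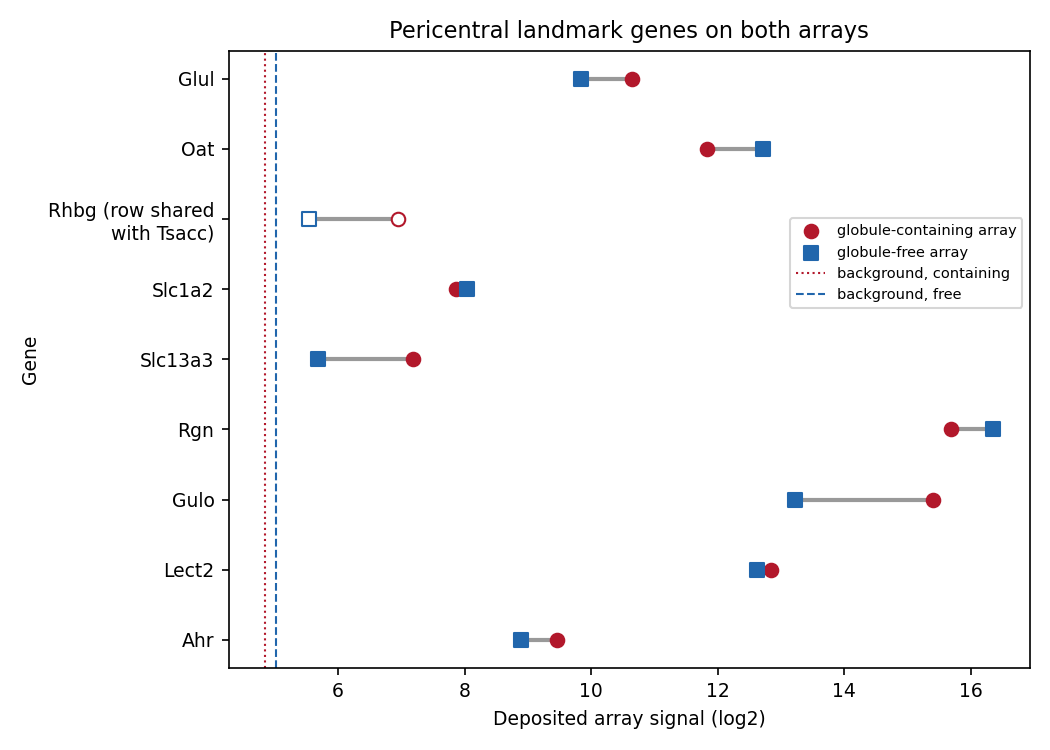
Deposited log2 array signal (horizontal axis) of each landmark gene on the globule-containing array (circles) and the globule-free array (squares), 1 array each, joined by a grey line. Open symbols are the Rhbg probe set, which also names Tsacc and was not counted. The vertical lines mark the background of each array, at 4.85 (globule-containing) and 5.02 (globule-free). Gulo has the widest gap, and Slc13a3 lies nearest to the background among the counted genes.

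Glul encodes glutamine synthetase, which joins ammonia to glutamate. Its log2 signal was 10.64 where globules were present and 9.84 where they were absent, which is 1.74-fold higher, a difference of 0.80. In all, 1510 genes, or 10.1% of those above the floor, had a difference at least as high. The 1 probe set for Glul (TC0100001387.mm.1) also names the microRNA gene Mir8114. In RefSeq (GRCm38.p6), 108 of the 111 bases of the Mir8114 hairpin lie inside the Glul gene on the same strand, so signal from both cannot be told apart by this annotation. The mature microRNA, at chr1:153899989-153900009 on the plus strand, is shown because it shares this probe set, with its seed (bases 2 to 8) in capitals.
mmu-miR-8114: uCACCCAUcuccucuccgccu

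Promoter windows in RefSeq (GRCm38.p6), which span 250 bases before to 50 after a gene's start, matched 5 of the 9 genes: Glul, Oat, Slc1a2, Slc13a3 and Lect2. They were searched on both strands for the core of the beta-catenin partners TCF and LEF, as CTTTGAA and CTTTGAT. A match to either was present in 2 of the 5 windows, against 8.65% of 32851 windows of the same length. Both were CTTTGAT on the opposite strand, in Lect2 and Slc1a2. The AHR core GCGTG was in 1 of the 5 (Lect2, on the opposite strand), against 32.4% of all windows, and the HNF4 motif CAAAGTCCA was in 0 of the 5, against 0.475%. A match describes letters in this window and shows no binding. The 250 bases before the start are shown for Glul, as the leading landmark gene, and for both genes with a match, whose 7 bases are in capitals, 5′ to 3′ on the gene's strand. The Glul stretch is chr1:153899679-153899928 on the plus strand, the Lect2 stretch chr13:56548539-56548788 on the minus strand and the Slc1a2 stretch chr2:102706188-102706437 on the plus strand. The Slc1a2 start in this table lies 48199 bases inside the annotated gene, so its window is an internal start, and the Lect2 start lies 21 bases inside.
Glul: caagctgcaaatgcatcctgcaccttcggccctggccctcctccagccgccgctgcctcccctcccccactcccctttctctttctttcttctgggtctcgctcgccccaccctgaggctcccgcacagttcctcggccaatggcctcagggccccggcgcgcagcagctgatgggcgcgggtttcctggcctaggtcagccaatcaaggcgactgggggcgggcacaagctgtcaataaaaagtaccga
Lect2: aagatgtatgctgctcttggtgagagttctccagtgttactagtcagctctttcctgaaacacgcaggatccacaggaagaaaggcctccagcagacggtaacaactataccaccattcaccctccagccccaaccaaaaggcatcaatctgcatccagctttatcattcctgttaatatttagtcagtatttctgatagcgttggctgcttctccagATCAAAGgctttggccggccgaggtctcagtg
Slc1a2: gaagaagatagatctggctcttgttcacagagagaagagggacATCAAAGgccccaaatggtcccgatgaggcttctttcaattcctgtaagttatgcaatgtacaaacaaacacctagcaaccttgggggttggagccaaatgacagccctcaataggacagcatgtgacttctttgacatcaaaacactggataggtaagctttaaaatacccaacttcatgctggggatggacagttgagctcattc
The match begins 32 bases before the start in Lect2 and 207 bases before it in Slc1a2.

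Oat encodes ornithine aminotransferase, a mitochondrial enzyme that turns ornithine into a precursor of glutamate and proline, and so feeds glutamine synthetase. Its log2 signal was 11.84 with globules and 12.71 without, 1.83-fold lower, a difference of -0.88. A difference at least as low was found for 1022 genes. Oat passed the 2-fold line after quantile normalization, at -1.10, and after loess correction, at -1.08. Glul and Oat differed in opposite directions under all 4 scalings tried.

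Rhbg encodes a membrane channel for ammonia of the Rhesus family. Its probe set (TC0300002305.mm.1) names Rhbg and Tsacc, a testis kinase co-chaperone, and read 6.95 with globules and 5.54 without, 2.67-fold higher. This value cannot be given to Rhbg alone. The Rh relatives Rhcg and Rhag, the kidney and red cell members, lay at background on both arrays, at 4.31 and 3.54 in globule-containing areas.

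Slc1a2 encodes the glutamate importer GLT-1, known from astrocytes and, in liver, from the hepatocytes that hold glutamine synthetase. Its log2 signal was 7.87 with globules and 8.03 without, a difference of -0.16, which is no larger than the median gap of 0.17 between probe sets of 1 gene. A second probe set, which names Slc1a2 and Gm13872, lay at background on both arrays, and was not counted. Among its relatives, Slc1a5, a neutral amino acid carrier, had 5.46 against 5.63, and Slc1a4, another neutral amino acid carrier, had 5.23 against a globule-free signal of 4.25 at background, at least 1.16-fold higher. The glutamate carriers Slc1a1 and Slc1a3 lay at background on both arrays.

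Slc13a3 encodes a sodium-dependent carrier of dicarboxylates such as succinate and alpha-ketoglutarate, the latter a carbon source for glutamate. Its log2 signal was 7.19 with globules and 5.69 without, 2.84-fold higher. A difference at least as high was found for 428 genes, 2.85% of those above the floor. The globule-free signal lay 0.67 above background, and Slc13a3 has only this 1 probe set. With background raised to the 99th percentile of the receptor probe sets, the difference was at least 1.46. Its relative Slc13a5, the citrate carrier of liver, had 5.29 against 5.06, and Slc13a1, Slc13a2 and Slc13a4 lay at background on both arrays.

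Of the partners of these genes in glutamine, ammonia and ornithine metabolism, 15 had a probe set and 14 lay above the floor. The other, Aldh18a1, had 4.89 against a globule-free signal of 4.46 at background (named once its value was known). All 14 above the floor lay lower in globule-containing areas as deposited. In 9 of them the signal was lower by 2-fold or more and in 0 higher by as much, and the median difference was -2.03. Nearest to equality was Gpt, an alanine aminotransferase, at -0.01, the only 1 of the 14 whose sign turned under a scaling tried, when each array was centred on its median. Got1, the cytosolic aspartate aminotransferase, had 8.29 against 12.78, 22.4-fold lower. Arg1, the arginase that makes ornithine, had 12.98 against 16.35, 10.3-fold lower, and Asl, the argininosuccinate lyase before it, 9.82 against 13.06, 9.44-fold lower. Around Oat itself, chosen after their values were seen, the mitochondrial ornithine carrier Slc25a15 differed by -0.61, the proline-degrading Prodh by -0.68 and Aldh4a1, which makes glutamate from the product of Oat, by -1.65. The 14 partners above the floor and Glul therefore lay on opposite sides of equality as deposited.

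Rgn and Gulo belong to the pathway that makes ascorbate, vitamin C, in mouse liver. Rgn encodes regucalcin, the lactonase that makes gulonolactone, and Gulo encodes gulonolactone oxidase, which turns it into ascorbate and which humans have lost. Gulo had 15.41 with globules and 13.22 without, 4.56-fold higher, a difference of 2.19. Only 177 of all genes above the floor, 1.18%, had a difference at least as high. Rgn went the other way, at 15.68 against 16.36, 1.59-fold lower, a difference of -0.67 that 9.98% of genes equalled or exceeded on the lower side. Both signals lay far above background on both arrays and below saturation.

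Of the 5 other genes of ascorbate synthesis and transport, 4 had a positive difference, and the median was 0.88. A 2-fold difference was passed by 1 gene upwards and 0 downwards. That gene, Ugp2, which makes UDP-glucose, had 14.52 against 13.45, 2.10-fold higher, and came within 2-fold after quantile normalization and after loess correction, at a difference of 0.85 in each. Ugdh, which oxidises it to UDP-glucuronate, had 10.66 against 9.79, and Akr1a1, which reduces glucuronate, had 15.06 against 14.14, 1.84-fold and 1.89-fold higher. Of the ascorbate importers, Slc23a1 had 8.01 against 8.79 and Slc23a2 6.04 against 5.59. All 4 measured synthesis genes other than Rgn, Gulo included, were therefore above equality on the globule-containing array, and the importers differed in opposite directions.

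Lect2 encodes a secreted chemotactic factor of hepatocytes and is a known target of beta-catenin. Its log2 signal was 12.84 with globules and 12.61 without, 1.17-fold higher, a difference of 0.22. The sign turned after quantile normalization, at -0.01. The difference was 0.01 after loess correction and 0.32 when each array was centred on its median. Of genes for receptors linked to it, Met, the hepatocyte growth factor receptor, had 8.77 against 9.97, 2.30-fold lower. Tek had 6.21 against 5.99, Cd209a had 4.88 against a globule-free signal of 4.83 at background, and Tie1 lay at background on both arrays.

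Ahr encodes the aryl hydrocarbon receptor, a ligand-activated transcription factor that induces enzymes of xenobiotic metabolism. Its log2 signal was 9.46 with globules and 8.89 without, 1.48-fold higher, a difference of 0.57. A difference at least as high was found for 16.7% of all genes above the floor. Of 8 partners and targets with a probe set, 5 lay above the floor. A 2-fold difference was passed by 1 of these upwards and 0 downwards, and their median was 0.54. Nqo1, a quinone reductase that NRF2 also induces, had 7.97 against a globule-free signal of 4.98 at background, at least 7.72-fold higher. Cyp1a2, the pericentral cytochrome P450 induced by AHR, had 17.59 against 16.62, 1.95-fold higher, and the co-chaperone Ptges3 13.61 against 13.08. Arnt, the dimer partner of AHR, had 6.97 against 7.05, a difference of -0.08 whose sign turned when each array was centred on its median. The target Tiparp had 6.85 against 6.78, a difference of 0.07 whose sign turned after quantile normalization, at -0.01. The targets Cyp1a1, Cyp1b1 and Ahrr were at background on both arrays (these and Tiparp named once their values were known).

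**Figure D2:**
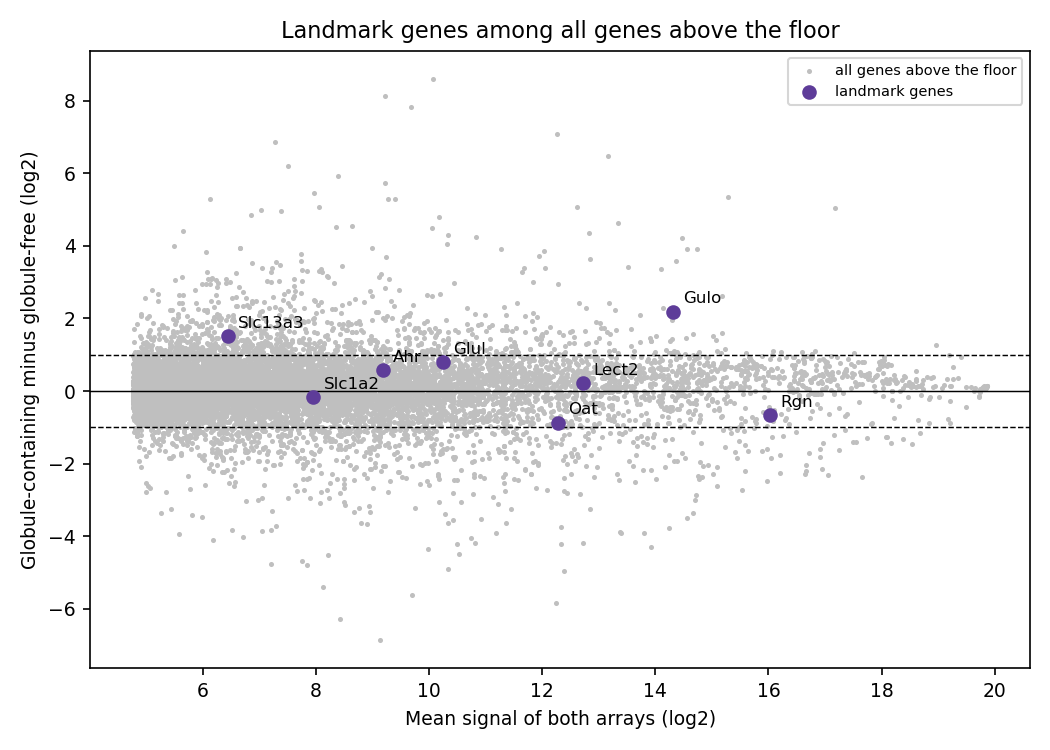
Difference between the arrays (vertical axis, log2) against the mean signal of both arrays (horizontal axis, log2) for all 15024 genes above the floor (grey points), with the 8 landmark genes in purple. The dashed lines mark a 2-fold difference. Gulo and Slc13a3 lie above the upper line and the other 6 landmark genes lie between the lines.

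Wnt signals of the central vein, their receptors and their targets were examined because beta-catenin signalling maintains the pericentral programme. Whether it regulates each landmark gene was not tested. Of 19 genes with a probe set, 15 lay above the floor. A 2-fold difference was passed by 1 of these upwards and 1 downwards, and their median was 0.19. Rspo3, which encodes R-spondin 3, had 8.86 against 5.82, 8.24-fold higher, and which cells gave this signal was not tested. Its receptor gene Lgr4 had 7.93 against 8.99, 2.08-fold lower (within 2-fold, at -0.96, when each array was centred on its median), while Lgr5 had 5.82 against a globule-free signal of 5.01 at background, at least 1.74-fold higher. Lrp6, a Wnt co-receptor, had 9.31 against 10.03, and Tbx3, a target in pericentral hepatocytes, had 6.88 against 6.24. The ligand genes Wnt2 and Wnt9b and the factors Lef1, Sp5 and Tcf7l1 were at background on both arrays (all but Tcf7l1 named once their values were known).

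Other pericentral genes also went both ways, while the periportal genes measured all lay lower. Of 21 other pericentral genes, a 2-fold difference was passed by 3 upwards and 5 downwards, and the median was 0.41. Those higher were Gstm3, at 19.71 against 14.65, Gstm2, at 16.16 against 12.57, both glutathione transferases that can share hybridisation, and Aldh3a2, at 13.33 against 10.33. The lowest were the cytochrome P450 genes Cyp2c54, Cyp2c50 and Cyp2c37, at 9.33 against 15.16, 9.89 against 14.86 and 8.71 against 12.77, whose probes can share signal too. The other two lower genes, named once their values were known, were Ces1d at -2.28 and Nr1i3 at -1.51. The differences of the landmark genes ran from -0.88 to 2.19, and those of the other pericentral genes from -5.83 to 5.05. Of 17 periportal genes, 15 passed a 2-fold difference downwards and 0 upwards, and the median was -2.37. The list was led by Hal, the histidine ammonia lyase, at 6.89 against 12.50, Etnppl, an ethanolamine phosphate lyase, at 7.88 against 12.79, and Pigr, the polymeric immunoglobulin receptor, at 11.44 against 15.35. The highest periportal difference was -0.81, and of the landmark genes only Oat lay below it as deposited. After quantile normalization and after loess correction Rgn, at -0.97 and -0.91, also lay below the highest periportal gene, Cdh1, at -0.88 and -0.90. The lists share members: 4 genes of the urea cycle are in both the periportal list and the list of glutamine and ammonia partners, 3 Wnt targets are also among the other pericentral genes, and so is Cyp1a2. No test of these differences between lists was possible with 1 array per group.

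**Figure D3:**
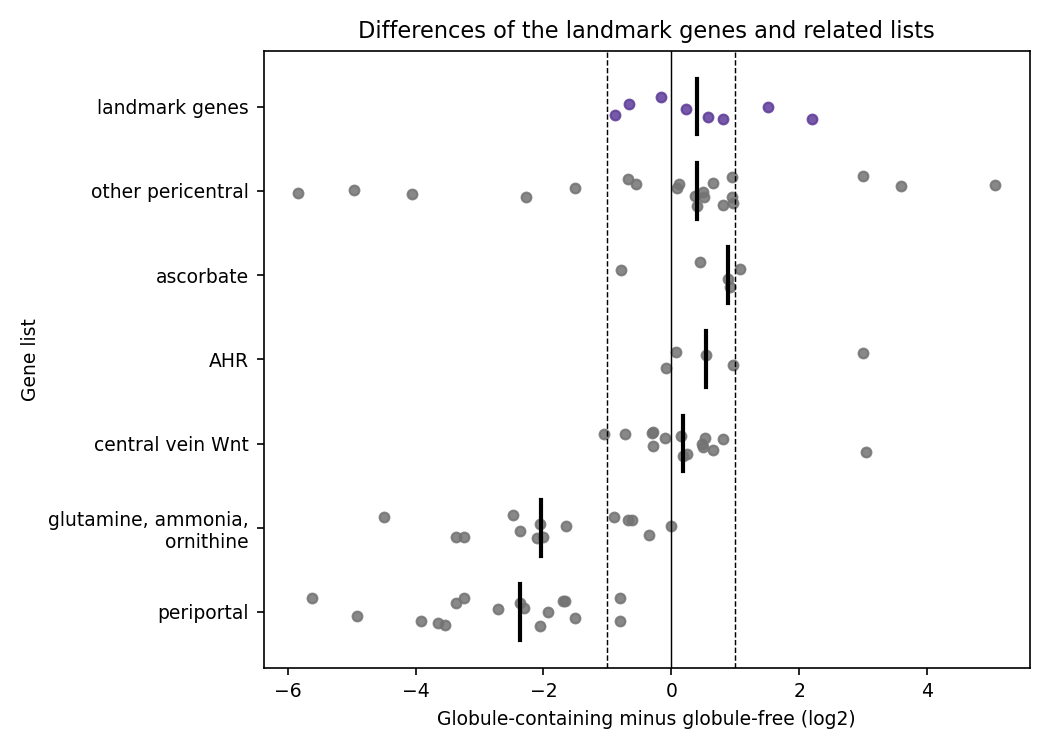
Differences between the arrays (horizontal axis, log2) of the 8 landmark genes (purple) and of genes in 6 related lists above the floor (grey), each point a gene, spread vertically only for legibility, with the list's median as a black bar. The landmark genes have a median of 0.39 and the periportal genes of -2.37, and the dashed lines mark a 2-fold difference.

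Markers of other cell types also differed between the arrays. Of 11 stellate cell and fibroblast genes above the floor, 10 passed a 2-fold difference upwards with a median of 2.43, and the summed signal of the list was 16.00 on the log2 scale against 12.67. Lum, lumican, had 13.24 against 9.32, and Lrat, the retinol-storing enzyme, 9.10 against 5.64, while the classic stellate marker Des was at background on both arrays. Des, Ngp, Ltf, Csf3r, Cxcr2, Apob, Ttr and the saturated hepatocyte genes were named once their values were known. Of 13 macrophage genes 5 passed it upwards and 5 downwards, with a median of 0.05. Their summed log2 signal was 18.34 against 14.01, and Lyz2 alone gave 76.5% of the sum (not in log2) on the globule-containing array. Lyz2 had 17.96 against 12.62 and Ctss 15.15 against 10.07, while the resident macrophage genes Clec4f and Cd5l had 6.96 against 10.01 and 7.15 against 9.83. Of 9 endothelial genes 1 passed it upwards and 0 downwards, with a median of 0.22 and a summed log2 signal of 12.02 against 11.59. Eng had 9.95 against 8.57, Clec4g 10.89 against 10.28, Cdh5 8.11 against 8.91 and Kdr 7.25 against 7.47. Of 5 neutrophil genes above the floor, with a median of 0.11, 2 passed it upwards, S100a8 at 11.34 against 5.42 and S100a9 at 10.91 against 6.37, while Ngp and Ltf were at background on both arrays. Camp, Csf3r and Cxcr2 differed by -0.04, 0.09 and 0.11. The summed neutrophil signal was 12.20 against 8.30, and S100a8 and S100a9 gave 95.9% of the sum (not in log2) on the globule-containing array. Of 4 cholangiocyte and 2 lymphocyte genes above the floor 0 were 2-fold apart in either direction. Epcam and Krt19 of cholangiocytes had 5.77 and 5.11, at least 1.69-fold and 1.06-fold higher than globule-free signals at background. Nkg7 of lymphocytes had 5.16, at least 1.10-fold higher than one at background, and Cd3g 5.37 against 5.21. The red cell gene Alas2, the only 1 of its list with a probe set of its own, had 7.62 against 8.34. Probe sets that name several globin genes were not counted and differed the other way (named once their values were known). Those of Hba-a1 and Hba-a2 differed by 0.28 and 0.28, and those of the Hbb genes by 0.79 and 0.47. In all, 6 of the 8 lymphocyte genes with a probe set lay at background on both arrays. The part of these cells in the values of the landmark genes was not tested.

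**Figure D4:**
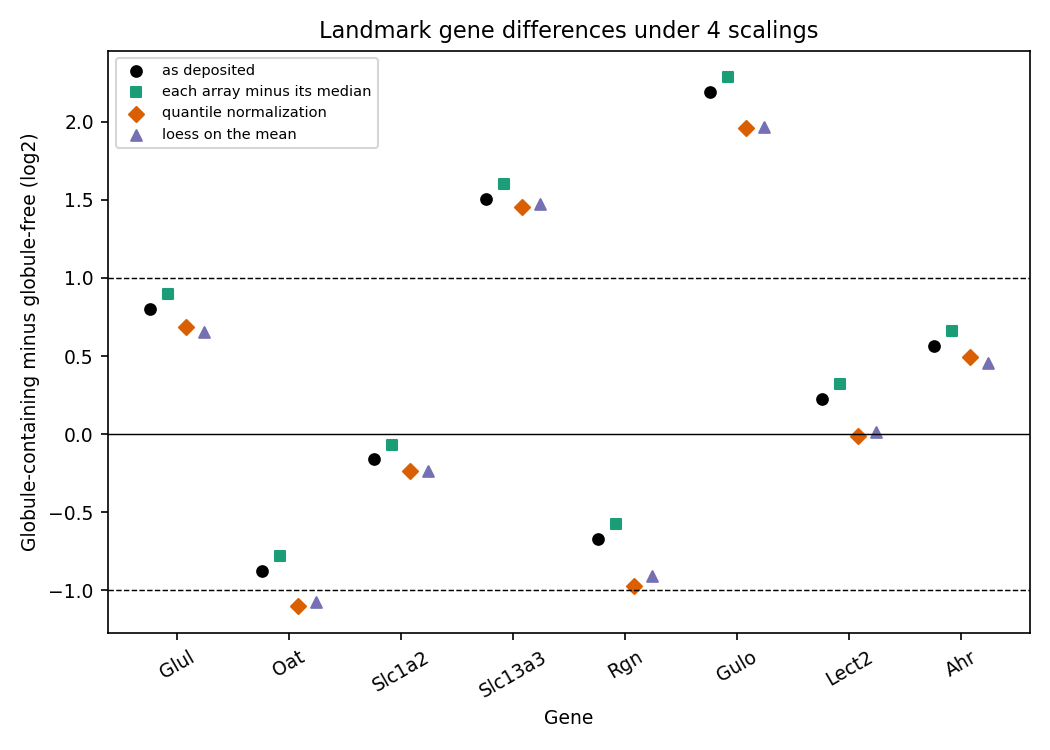
Difference between the arrays (vertical axis, log2) of each measured landmark gene under 4 scalings of the arrays: as deposited, each array minus its median, quantile normalization and loess correction on the mean. The dashed lines mark a 2-fold difference. Gulo and Slc13a3 stay above the upper line under all 4, Oat crosses the lower line under quantile and loess scaling, and Lect2 lies at the zero line under both.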

How the data were processed

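The deposited table holds log2 signals, 1 per probe set, for 72688 probe sets and 2 arrays. Per the submitters' processing notes, the authors used the Transcriptome Analysis Console; no version is named, and the way background was corrected and arrays were normalized, like the build, was not given in the sources used here. Per the labels, RNA came from a PicoPure extraction and was amplified with the NuGEN Ovation WTA System V2. The log2 scale was read from the values, which run from 1.85 to 19.93. Genes came from the platform annotation, with symbols updated through a RefSeq table (GRCm38.p6): 30604 probe sets named 1 gene, 2146 several and 39938 none listed here. Probe sets of 1 gene were averaged. Values within 0.2 of an array's highest value were taken as saturated. Where 1 array lay at or below background, that value was raised to background and the fold is a lower bound ("at least"). Counts use the deposited values. Array signals give no read depth, and the number of arrays limits the precision.

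The landmark genes and the lists were chosen with earlier results of these data known. Named genes are all 9 landmark genes, every gene of lists of 8 or fewer, the 3 genes furthest from equality on each side in other lists and 2 on each side in marker lists. With 2 arrays a pattern is a single difference, so no gene was named for likeness to another. Scalings, floor, fold and probe set choice were varied. Scripts were tested on simulated data. Python 3.11.15, numpy 2.4.6, pandas 2.3.3 and statsmodels 0.14.6 were used.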

Additional observations from a re-analysis of the deposited data

How the results depend on the processing

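With 1 array per group no sample could be left out, and no paired analysis was possible because each group has 1 sample. Of 8 landmark genes, 7 kept the sign of their difference under all alternatives run, and Lect2 did not (-0.01 after quantile normalization). The count of landmark genes at least 2-fold higher was 2 as deposited, 1 with the floor at the 75th percentile, which left out Slc13a3, and 1 at a 3-fold threshold, when 8.58% and 2.62% of all genes were called higher. The count at least 2-fold lower was 0 as deposited and 1 after quantile normalization or loess correction, when 6.40% and 6.31% of all genes were called. At a 1.5-fold threshold 2 were lower and 3 higher, when 11.9% and 16.0% of all genes were called. With probe sets naming several genes kept for every landmark gene, chosen after seeing the data, 3 of 9 were at least 2-fold higher, against 6.48% of all genes. Across scalings Gulo ran from 1.96 to 2.28 and Slc13a3 from 1.45 to 1.60. Low signal limits Slc13a3 most, since its globule-free value lay 0.67 above background. Among the related lists, centring each array on its median took the count of other pericentral genes at least 2-fold higher from 3 to 6, of ascorbate genes from 1 to 2 (0 after quantile or loess scaling), of AHR genes from 1 to 2 and of cholangiocyte genes from 0 to 1 (1 after loess too), and the Wnt genes at least 2-fold lower from 1 to 0. Every list median in the report for which scalings were run kept its sign.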

Other observations

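Several related genes have a probe set that names more than 1 gene, and their values were left out of the lists. The probe set of Cyp2a4 and Cyp2a5, pericentral cytochrome P450 genes of near-identical sequence, had 17.54 with globules and 14.26 without, 9.67-fold higher. The probe set of Ctnnb1, which encodes beta-catenin, also names Mir7090 and had 10.38 against 9.50, 1.84-fold higher. Rows of Cyp2c29 with a pseudogene, of Glud1 with Gm3219 and of Ass1 with Gm5424 differed by -0.63, -0.19 and -0.61. The probe set of Rnf43, a Wnt target, with a RIKEN transcript differed by -0.03.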
